A study of Homo sapiens with 4 samples.

Results

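The genes described here are the ubiquitin ligase and deubiquitinase families of 2 lung adenocarcinoma cell lines, as far as an N6-methyladenosine (m6A) peak was listed on their transcripts. Members were taken by symbol: USP, TRIM, RNF or OTUD followed by a digit or letter, or a symbol that starts with UBE2, UBE3, FBXO, FBXW or FBXL, with 2 symbols left out by the rule. Of 7957 genes with a peak in either line, 165 were members: 24 UBE2, 2 UBE3, 44 RNF, 27 TRIM, 36 F-box (FBXO, FBXW and FBXL), 28 USP and 4 OTUD genes. The choice rests on names alone, so USP6NL, a GTPase-activating protein gene, and USPL1, a SUMO protease gene, are included. Genes of these families without a peak in either list are not members.

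The lines were A549/DDP, labelled as cisplatin-resistant lung adenocarcinoma cells, and A549, labelled as cisplatin-sensitive lung adenocarcinoma cells; cisplatin, for which DDP stands, is a platinum drug that forms crosslinks in DNA. Both were grown in the same medium with serum, and the labels name no drug exposure at harvest, no way in which resistance was obtained and no clone. In MeRIP-seq, an anti-m6A antibody enriches RNA fragments that carry the mark, and these are read against input fragments. The 4 groups were A549/DDP pull-down, A549/DDP input, A549 pull-down and A549 input, with 1 library each, and each line had 1 peak list. No difference between the lines therefore had a replicate check, no test between them was made, and every comparison describes these libraries.

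Ubiquitin is passed from an activating enzyme (E1) to a conjugating enzyme (E2, here the UBE2 genes) and then, with the help of a ligase (E3), to a substrate. HECT ligases such as UBE3A take ubiquitin onto themselves first, RING ligases such as the RNF and TRIM proteins bring the loaded E2 to the substrate, and F-box proteins are the substrate receptors of SCF ligases, which are built on a cullin. Deubiquitinases such as the USP and OTUD proteins remove ubiquitin again, and members of several of these families act in the repair of DNA damage. m6A is set on messenger RNA by the METTL3-METTL14 complex and lies mostly near stop codons and in 3′ untranslated regions (UTRs), where reader proteins that bind it can alter the decay or translation of the transcript.

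A peak carries 2 values of the authors, a fold enrichment (a linear ratio) and a p-value, both used here only to describe and rank peaks within a list. The median fold of the members' peaks was 4.44 in A549/DDP and 4.41 in A549, beside 3.81 and 3.72 over all peaks of these lists. The lists hold no read counts, so depth is unknown, and a gene can lack a peak because its transcript was scarce. The median p of all peaks was 5.13e-08 in A549/DDP and 9.12e-08 in A549, and a peak below its list's median is called strong here and any other weak. Many peaks share both values with peaks of other genes: this held for 44.9% of the members' peaks in A549/DDP and 44.1% in A549, beside 39.9% and 38.1% of all. Of 15 lung epithelial marker genes 6 had a peak, namely KRT7, KRT8, KRT18, MUC1 and ABCA3 in both lines and CDH1 in A549 alone, while NKX2-1, EPCAM and the surfactant genes had none. Of 16 markers of other cell types, CD68, COL1A1 and RBFOX3 had a peak, in both lines. Positions are given in hg19, counting from 1, and with no genome of that build no peak sequence is printed.

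Of the 165 members, 150 had a peak in A549/DDP and 126 in A549. The A549/DDP list alone held 39 members (23.6%, exact binomial 95% interval 17.4 to 30.9), against 18.9% of all genes. The A549 list alone held 15 members (9.09%, 5.18 to 14.6), against 11.6% of all genes, and 111 (67.3%, 59.5 to 74.4) had a peak in both, against 69.5%. All 3 intervals include the value over all genes, so no share of the members stood apart from that of all genes by counting error. These intervals, here and below, cover counting error only.

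By family the counts ranged widely, without a test between families. All 24 UBE2 genes had a peak in A549/DDP and 15 had one in A549, so that 9 were listed for A549/DDP alone (37.5%, 18.8 to 59.4) and 0 for A549 alone (interval up to 14.2%). The F-box genes followed with 11 for A549/DDP alone and 4 for A549 alone, and the RNF genes with 8 and 4. The USP genes stood at 5 and 4 and the TRIM genes at 3 and 3. Of the 4 OTUD genes 3 were listed for A549/DDP alone, and both UBE3 genes were listed in both lines. Both UBE2 intervals include the values over all genes, 18.9% and 11.6%, the first of them only just.

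**Figure D1:**
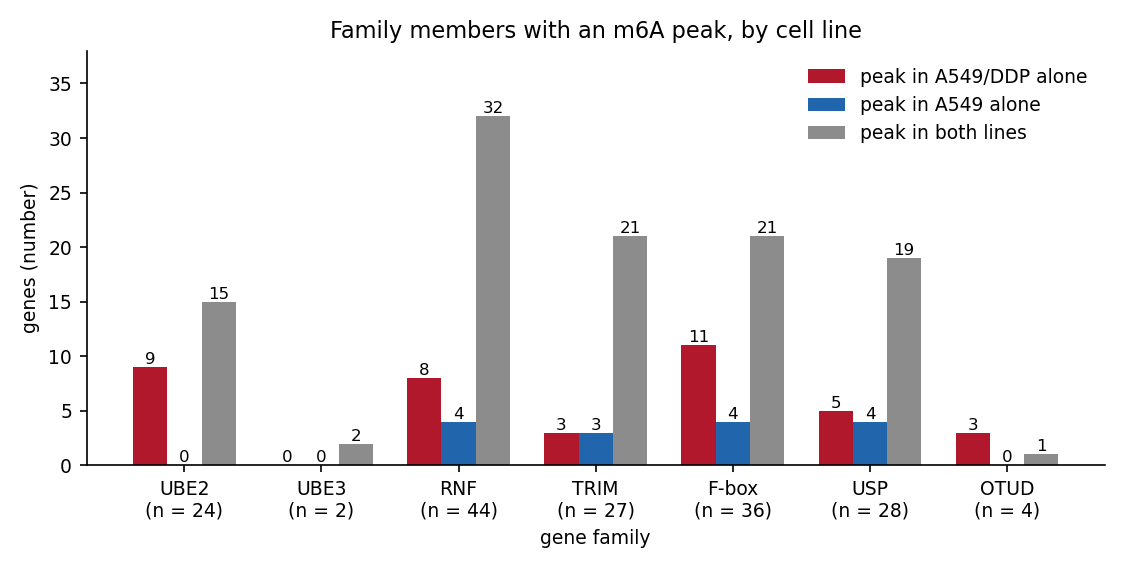
Number of genes (vertical axis) with an m6A peak in A549/DDP alone (red), A549 alone (blue) or both lines (grey), for each family (horizontal axis, n is the number of members). The UBE2 genes have 9 genes in A549/DDP alone and 0 in A549 alone, while the TRIM genes have 3 in each.

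Genes listed in one line alone mostly carried weak peaks. The smallest p of a member listed for A549/DDP alone had a median of 2.45e-05, and 14 of these 39 had a strong peak (35.9%, beside 20.5% of all genes of A549/DDP alone). The 15 members of A549 alone had a median of 0.000191, and 2 of them, RNF216 and RNF7, had a strong peak (13.3%, beside 22% of all genes of A549 alone). For the 111 members listed in both, the median was 2.51e-15 in the A549/DDP list and 1.55e-09 in the A549 list. Over all genes the corresponding medians were 4.07e-05 for A549/DDP alone and 6.68e-05 for A549 alone. For all genes listed in both they were 3.16e-15 in the A549/DDP list and 1.26e-12 in the A549 list.

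The E2 enzymes listed for A549/DDP alone carried their peaks largely at the start of the coding sequence. Of these 9 genes, 6 had a peak that touched the 5′ UTR, among them UBE2B, UBE2C, UBE2E1, UBE2E3 and UBE2K. Among all members listed for A549/DDP alone 13 of 39 had such a peak (33.3%, 19.1 to 50.2), against 19.2% of all genes of A549/DDP alone; among those listed for A549 alone it was 2 of 15 (FBXL14 and RNF10; 13.3%), against 7.99% of all genes. UBE2C, the E2 of the anaphase-promoting complex, had a region from the 5′ UTR into coding sequence with a fold of 17.6 (authors' p of 1.91e-10, chr20:44441297-44441416). UBE2K, an E2 that builds lysine-48-linked chains, had a fold of 6.80 (authors' p of 6.31e-15, chr4:39699789-39699967). Both peaks were strong and were shared in value with no other gene.

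The other E2 genes of A549/DDP alone had lower folds or weaker peaks. UBE2E3 had a strong start-side peak with a fold of 3.03 (authors' p of 2.63e-10). UBE2B, the RAD6 homologue that works with RAD18 at stalled replication forks, had a fold of 5.57 with a weak p of 8.32e-06 (chr5:133707229-133716411, introns included). UBE2E1 had a fold of 2.35 (authors' p of 3.24e-05). UBE2L6, the E2 of the ubiquitin-like protein ISG15, had a strong peak at the stop codon with a fold of 2.29 (authors' p of 2.19e-10). UBE2V2, the catalytically inactive partner of UBE2N in lysine-63-linked chains, had folds up to 1.94 in coding sequence, and UBE2G1 had a weak 3′ UTR peak of fold 7.04 whose values were shared with peaks of 26 other genes.

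The 15 E2 genes listed in both lines had most of their peaks in common. Of their 72 peaks in A549/DDP, 91.7% (82.7 to 96.9) overlapped a peak of the A549 list, and of their 68 peaks in A549, 97.1% (89.8 to 99.6) overlapped one of the A549/DDP list, beside 78.5% and 85.7% of the peaks of all genes listed in both lines. Peaks of a gene can overlap each other, so these intervals are too narrow. In A549/DDP, UBE2J2 had 11 of the 72 peaks and UBE2V1 and UBE2D3 had 10 each. Among these genes 7 had a 5′ UTR peak in both lines, and none had one in A549/DDP alone or in A549 alone, beside 14.4%, 10.8% and 2.03% of all genes listed in both lines. UBE2Q1, a member of the E2 family, had folds of 25.1 in A549/DDP (authors' p of 5.01e-50, chr1:154527980-154531109) and 28.1 in A549 (authors' p of 6.31e-27, chr1:154530719-154531109) at its start codon. UBE2R2, a partner of SCF ligases, had 24.2 and 25.2 there, and UBE2M, the E2 that attaches NEDD8 to cullins, had 12.1 (authors' p of 1e-168) and 15.5 (authors' p of 1e-279). These were the highest folds at strong peaks among the E2 genes listed in both lines, in either list. UBE2D3 had the same 3′ UTR peak in both lists down to the base (chr4:103718209-103718539), with folds of 2.29 and 2.65. UBE2V1 had folds of 5.01 in A549/DDP and 2.57 in A549, but its peaks also carry the symbols of TMEM189 and the TMEM189-UBE2V1 readthrough gene, so their assignment is uncertain.

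**Figure D2:**
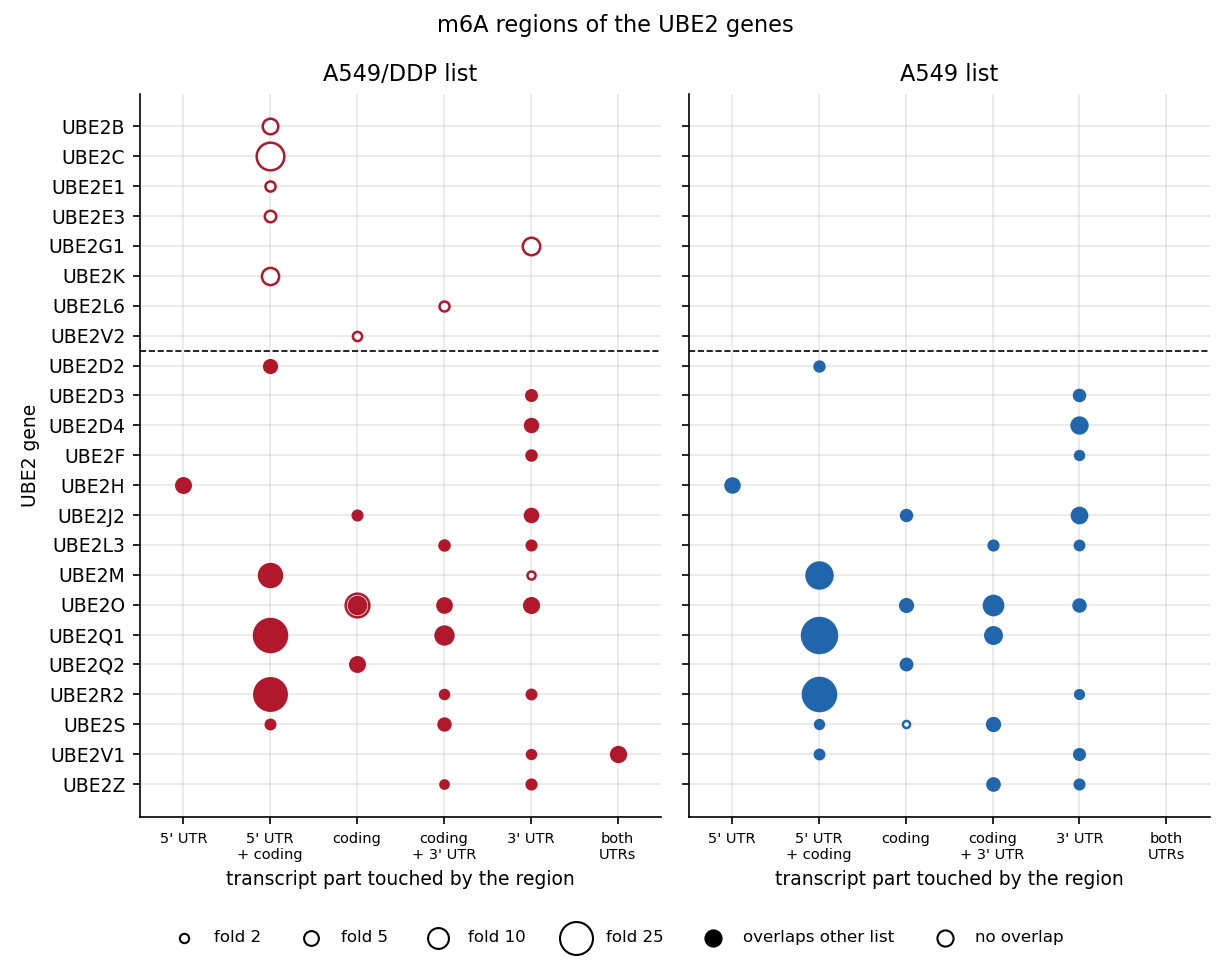
Merged m6A regions of 23 UBE2 genes (rows) by the transcript part they touch (columns), in the A549/DDP list (left) and the A549 list (right). Circle area is proportional to the highest fold in the region, filled circles overlap a region of the other list, open ones do not, and circles of one gene and part lie on top of each other; the 8 genes above the dashed line have regions in A549/DDP alone, 5 of them at the 5′ UTR with coding sequence.

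The HECT ligases and the deubiquitinases of the OTUD family were few. UBE3A, the imprinted gene of Angelman syndrome, had a strong coding peak with a fold of 5.36 in A549/DDP (authors' p of 4.79e-10, chr15:25615956-25616224), and the region was also listed in A549, with a fold of 4.96. A 3′ UTR peak of UBE3A with a fold of 1.87 was listed in A549 alone, and all A549 peaks of UBE3A were weak. UBE3B had its main peak in the 3′ UTR, with folds of 5.03 in A549/DDP (authors' p of 3.16e-16) and 2.45 in A549 (authors' p of 2.69e-06). OTUD1 was listed for A549/DDP alone with a fold of 29.3 at the stop codon (authors' p of 4.68e-08, chr10:23729633-23729873), values that it shares with peaks of 2 other genes. OTUD3 (fold 4.02) and OTUD6B (up to 5.86, at the start codon) were listed for A549/DDP alone with weak peaks. OTUD4, which supports the repair of alkylated DNA, had 3 regions in A549/DDP and 2 in A549, all weak, with folds up to 4.36 and 10.7.

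RING ligases of the RNF family had 32 of 44 members in both lines. RNF145, a sterol-regulated ligase of the endoplasmic reticulum, had the highest fold of any member in A549/DDP, 48.1 at its start codon (authors' p of 1.58e-81, chr5:158630537-158636559), and 17.2 there in A549 (authors' p of 3.16e-56). RNF25 had one stop-codon region in each list, with folds of 11.8 and 12.1 (chr2:219528587-219529477 in A549/DDP). RNF217, a ligase of the iron exporter ferroportin, had folds of 19.9 in the 5′ UTR in A549/DDP and 24.8 at its start codon in A549. RNF40, which with RNF20 ubiquitinates histone H2B, had 3 regions in A549/DDP with folds up to 7.04 and 5 in A549 with folds up to 13.4. RNF213, a very large AAA+ ligase linked to moyamoya disease, had 6 regions in A549/DDP, the most of any member, and 3 in A549, all 3 of which overlapped one of A549/DDP.

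The RNF genes of one line alone held few strong peaks. In A549/DDP alone these were RNF4, a ligase that recognises SUMO chains (fold 2.88 at the stop codon, authors' p of 6.31e-16, chr4:2515520-2515729), RNF8, which starts ubiquitin signalling at DNA breaks (fold 3.43 in coding sequence, authors' p of 8.51e-09), and RNF181 (folds up to 2.41, smallest authors' p of 7.94e-11). In A549 alone they were RNF216, an RBR-type ligase, with a fold of 7.98 in the 3′ UTR (authors' p of 5.37e-10, chr7:5660548-5661028), and RNF7, the RING subunit of CUL5 ligases, with 2.48 in the 3′ UTR (authors' p of 8.51e-08). RNF7 had 2 further 3′ UTR regions with folds of 12.4 and 11.6, both weak, with values shared with peaks of 133 and 118 other genes. RNFT2, a RING protein with transmembrane segments, had 5 regions in A549, of which 3 (folds of 17.3 to 19.8, all weak) met no region of A549/DDP. The values of those with 19.8 and 19.0 were shared with peaks of 39 and 41 other genes. RNF157 was listed in both lines through 3′ UTR peaks that did not overlap, with a weak fold of 15.2 in A549/DDP and a strong one of 26.4 in A549. The values of these RNF157 peaks were shared with peaks of 108 and 8 other genes of their lists.

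In the TRIM family the strong peaks with the highest folds sat at the same places in both lists. TRIM16L had folds of 25.8 in A549/DDP and 90.6 in A549 at its stop codon (chr17:18638746-18639431 in A549/DDP); the value in A549 was the highest of any member in that list. TRIM16 had 22.4 and 39.6 at its own stop codon; as the pair are near-identical copies, how reads were split between them is uncertain. TRIM56, which acts in antiviral signalling, had a coding region with folds of 11.7 and 38.8. TRIM65 had an identical 3′ UTR peak in both lists (chr17:73885041-73885460) with folds of 8.99 and 31.4. TRIM28, the corepressor KAP1 that is phosphorylated after DNA breaks, had a region from the 5′ UTR into coding sequence with a fold of 6.65 in A549/DDP alone (authors' p of 7.94e-59, chr19:59056045-59057136), beside a shared 3′ UTR region with 3.09 and 2.14. TRIM47 was the only member listed in both with a 5′ UTR peak in A549 and none in A549/DDP. The merged region that held this peak had a highest fold of 2.27 and a smallest authors' p of 2.4e-06. The 5′ UTR peak itself did not pass p of at most 1e-05. The 6 TRIM genes of one line alone held no strong peak; TRIM45 of A549 alone had a fold of 12.4 whose values were shared with peaks of 133 other genes.

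Of the 36 F-box genes 21 were listed in both lines, and among those with a strong peak in each list FBXL19, FBXW4 and FBXL15 ranked best by the lower of their ranks in the lists. FBXL19, which binds CpG islands, had a start-side region with folds of 14.7 in A549/DDP and 20.2 in A549 and a stop-codon region with 13.2 and 23.1, the highest in each region. FBXW4 had 11.7 and 13.6 at its start codon, and FBXL15, a receptor for the ligase SMURF1, had 7.90 and 10.1 at its stop codon. Higher folds in a single list included FBXL18, with 45.4 in the 3′ UTR in A549 (authors' p of 1.26e-13) at a place with no A549/DDP peak. Strong peaks in A549/DDP alone belonged to FBXL16, FBXL5 and FBXO5. FBXL16 had 4 regions, one of them at the start codon with a fold of 27.0 (authors' p of 7.94e-14, chr16:747290-755799, introns included) and another in the 3′ UTR with 3.43 (authors' p of 6.31e-13). FBXL5, the iron sensor that targets IRP2, had 11.7 in the 5′ UTR (authors' p of 3.16e-14, chr4:15682917-15683183) and 5.97 in coding sequence. FBXO5, the inhibitor EMI1 of the anaphase-promoting complex, had 6.30 in coding sequence (authors' p of 1.62e-08). The 4 F-box genes of A549 alone held no strong peak; FBXL14, a receptor for the Snail factor, had 19.8 at its start codon with values shared with peaks of 39 other genes.

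Among the USP deubiquitinases 19 of 28 were listed in both lines. USP9X, a large deubiquitinase of many substrates, had 5′ UTR folds of 36.4 in A549/DDP and 9.91 in A549 from the same start (chrX:40944948-40945247 in A549/DDP). USP10, which acts on p53, had coding folds of 13.4 (authors' p of 1e-109) and 15.5 (authors' p of 1.26e-54), and USP22, the deubiquitinase of the SAGA complex, had 3′ UTR folds of 12.3 and 18.0. USP54 had 5 regions in A549/DDP and 3 in A549, with folds up to 19.9 and 16.5. Strong peaks in A549/DDP alone belonged to USP24 (fold 5.63 in the 3′ UTR, authors' p of 7.94e-14) and USP48 (up to 3.36 in coding sequence, smallest authors' p of 1.78e-08), and none of the 4 USP genes of A549 alone had one. USP6NL of A549/DDP alone had 3 weak regions with folds up to 18.8. Of the USP peaks, 15.4% touched the 5′ UTR in A549/DDP and 3.61% in A549, where they were 3 of 83 peaks; the intervals, 9.56 to 23.1 and 0.752 to 10.2, held the shares of all peaks, 13.6% and 8.42%.

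**Figure D3:**
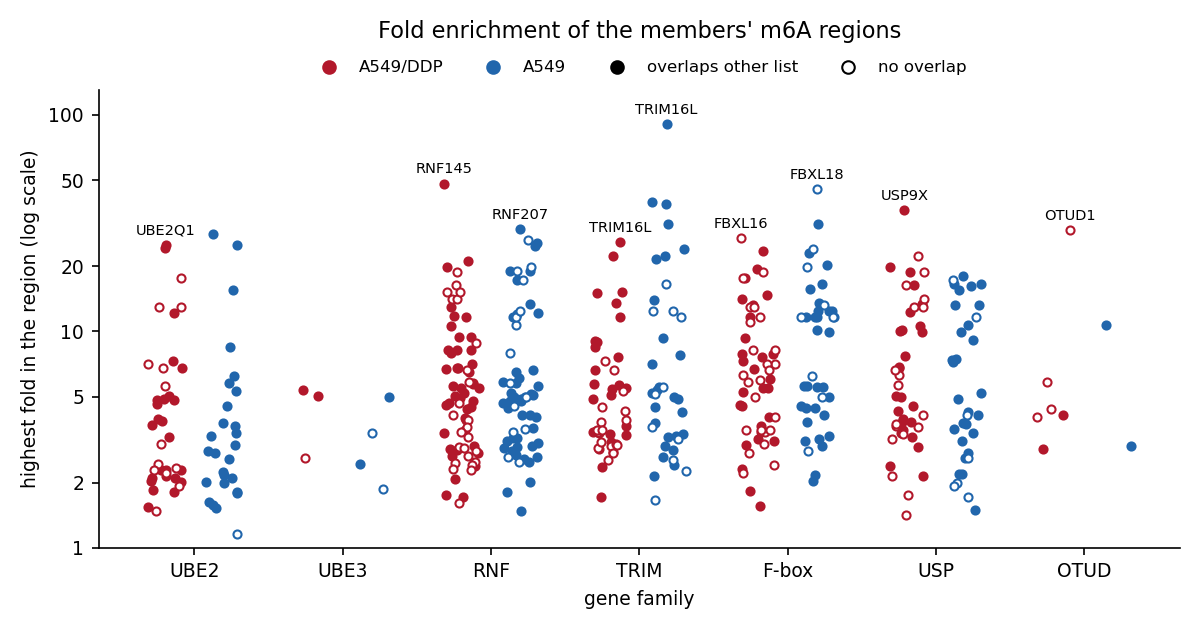
Highest authors' fold of each merged member region (vertical axis, log scale) by family, with A549/DDP in red to the left of A549 in blue. Filled points overlap a region of the other list and open points do not; the named points include RNF145 at 48.1 in A549/DDP and TRIM16L at 90.6 in A549, and heights are not comparable between the lines.

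A list of 30 genes of these families that act in DNA damage signalling or repair, or are regulated by it, was followed through both peak lists. Of these, 22 had a peak: 8 were listed for A549/DDP alone, 0 for A549 alone and 14 in both, beside shares of 18.9%, 11.6% and 69.5% over all genes. The 8 included UBE2B, UBE2V2, RNF4, RNF8, FBXO5, USP24 and USP48, and 6 of the 8 had a strong peak, the exceptions being UBE2B and UBE2V2. When only peaks with p of at most 1e-05 were kept in each list, all 22 still had a peak: 13 were listed for A549/DDP alone, 0 for A549 alone and 9 in both. At that threshold the shares over the 6014 genes left were 21.8%, 12.1% and 66.2%, and a gene listed in both can move to one line because its peak in the other is weaker. This threshold was chosen after seeing the data. Some genes lay close to it: the smallest authors' p was 8.13e-06 for RNF111 and 8.71e-06 for OTUD4 in A549/DDP, and 1.15e-05 for RNF168 in A549. With folds of at least 5 or equal numbers of peaks, a gene of this list was listed for A549 alone. Several of the 14 had their peaks at the same place in both lists. USP1, the deubiquitinase of PCNA and FANCD2, had coding folds of 4.96 (authors' p of 3.98e-69) and 3.40 (authors' p of 5.01e-16). USP47 had a start-side region with 10.0 and 5.18 and a stop-codon peak identical in both lists (chr11:11977638-11977968, folds of 4.95 and 3.48). USP7, which stabilises MDM2 and p53, had 16.4 (authors' p of 2.14e-10) and 16.5 (authors' p of 6.03e-05) at its start codon, and the A549 value is shared with peaks of 68 other genes.

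The ligases of the DNA break response on that list were mixed. RNF168, which spreads the ubiquitin mark that RNF8 starts, had a 3′ UTR region with folds of 9.38 in A549/DDP and 4.01 in A549 and a coding region with 6.50 and 19.0, and a further coding region with 6.61 (authors' p of 5.01e-12) in A549/DDP alone. All A549 peaks of RNF168 were weak, and the values of the one with 19.0 were shared with peaks of 41 other genes. RNF169, which binds the same mark, had one 3′ UTR peak in each list with 2.95 and 3.04. RNF111, a ligase of SUMO-modified proteins, had only weak peaks and no region common to both lists. USP3 had 3′ UTR folds of 3.81 and 2.61, and FBXO31 had 3′ UTR folds up to 7.88 and 9.91. FBXW7, the receptor for cyclin E and MYC, had a stop-codon region with 6.01 and 5.58 and a coding region with 17.6 and 11.6. All A549 peaks of FBXW7 were weak. The FBXO18 gene, which encodes the helicase FBH1, had a region at the start codon with 7.62 in A549/DDP that overlapped a coding peak of 2.94 in A549.

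Counts over the remaining lists of the pathway were small. For comparison, of all genes with a peak 18.9% were listed for A549/DDP alone, 11.6% for A549 alone and 69.5% in both. Of 17 genes of these families with roles in innate immune signalling 11 had a peak, 2 for A549/DDP alone (TRIM38 and UBE2L6), 1 for A549 alone (TRIM5) and 8 in both. Of 20 cullin-ligase genes outside the families 17 had a peak: 5 in A549/DDP alone (BTRC, CAND1, CUL7, TCEB1 and RBX1), 1 in A549 alone (TCEB2) and 11 in both. TCEB1, which encodes elongin C, was the only one of these 5 with a strong peak, a fold of 6.37 at the start codon (authors' p of 2e-20). Of 24 other HECT ligases 13 had a peak (2, 1 and 10 in the same order), of 40 other RING and U-box ligases 27 (4, 4 and 19), and of 23 other deubiquitinases 15 (4, 2 and 9). Of 10 E1 and ubiquitin genes 4 had a peak, all in both lines.

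By transcript part, and counted by peak, the members' peaks in A549/DDP touched the 5′ UTR more often than all peaks of that list. They touched the 3′ UTR less often. In A549 the intervals of the members held the shares of all peaks. A peak touched the 5′ UTR in 16.9% of 622 member peaks in A549/DDP (14.0 to 20.1) and in 9.63% of 488 in A549 (7.16 to 12.6), beside 13.6% and 8.42% of all peaks. Coding sequence was touched by 66.1% of the members' peaks in A549/DDP (62.2 to 69.8) and by 62.3% in A549 (57.8 to 66.6), beside 65.2% and 64.5% of all peaks. The 3′ UTR was touched by 46.3% in A549/DDP (42.3 to 50.3) and by 53.1% in A549 (48.5 to 57.6), beside 50.4% and 56.0% of all peaks. As peaks of a gene can overlap, these intervals are too narrow. Over merged regions in A549/DDP the 5′ UTR share was 18.1% (13.6 to 23.4), an interval that held the 14.7% of all regions. The 3′ UTR share of regions was 51.4% (45.1 to 57.6), an interval that did not hold the 59.1% of all regions. The UBE2 peaks had the highest 5′ UTR share of the 7 families in each list, with 35.0% (interval 25.8 to 45.0) of those in A549/DDP and 22.1% (12.9 to 33.8) of those in A549 touching the 5′ UTR. They made up 36 of the 105 member peaks that touched the 5′ UTR in A549/DDP. The other shares there were 19.7% for F-box, 15.4% for USP, 10.2% for TRIM, 10.0% for RNF, 9.09% for OTUD and 0% for UBE3 peaks. Counted by gene, 5′ UTR peaks were listed for 47 of 150 members in A549/DDP (31.3%, 24.0 to 39.4) and for 26 of 126 in A549 (20.6%, 13.9 to 28.8), beside 23.9% and 15.2% of all genes in these lists.

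**Figure D4:**
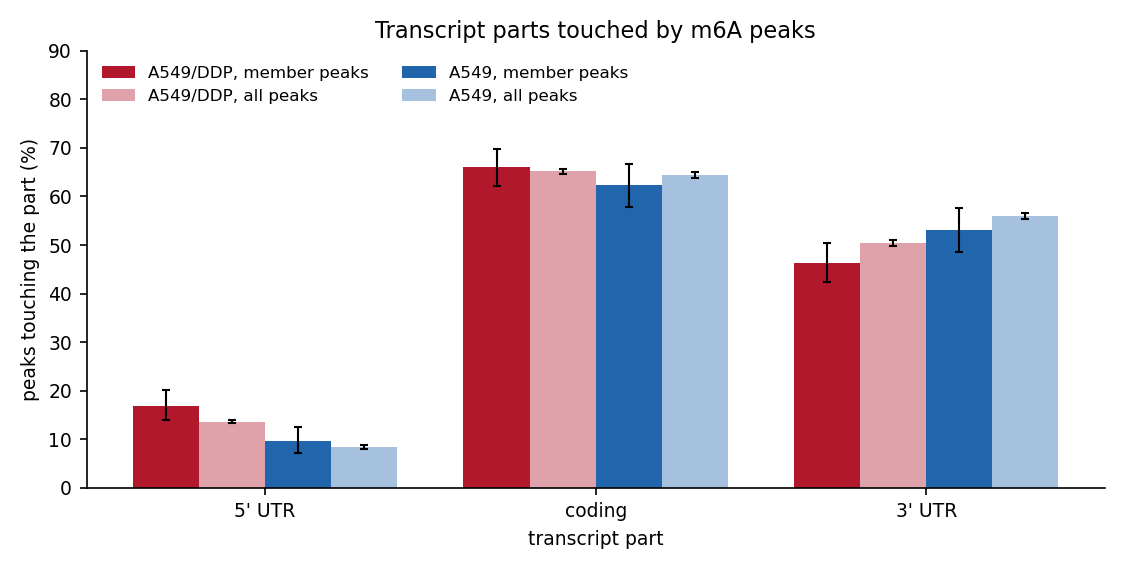
Percentage of peaks (vertical axis) that touch the 5′ UTR, coding sequence or 3′ UTR, for member peaks (dark) and all peaks (light) of A549/DDP (red) and A549 (blue); a peak can touch several parts. Bars start at 0, error bars are exact binomial 95% intervals, and the 5′ UTR share of member peaks is 16.9% in A549/DDP and 9.63% in A549.

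Among the 111 members listed in both lines, a 5′ UTR peak was found for 11 in the A549/DDP list alone (9.91%, against 10.8% of all such genes), for 1 in the A549 list alone (0.901%, against 2.03%), for 23 in both (20.7%, against 14.4%) and for 76 in neither (68.5%, against 72.8%). The 11 were FBXO17, FBXO18, FBXO44, RNF103-CHMP3, RNF111, RNF44, TRIM16L, TRIM28, TRIM44, USP32 and USP54. TRIM28 had the strongest of these peaks. USP32, a membrane-bound deubiquitinase, had a start-side fold of 14.1 (authors' p of 6.76e-08, weak by the median), and FBXO17 and FBXO44 had weak 5′ UTR folds of 12.9 and 8.21. The RNF103-CHMP3 peaks also carry the symbol of CHMP3. When only peaks with p of at most 1e-05 were kept, 72 members were listed in both lines, of which 4 carried 5′ UTR peaks only in the A549/DDP list and 0 only in the A549 list (5.56% and 0%, against 9.2% and 1.63% of all such genes).

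Peaks of both lists were joined into sites, so that each stretch of transcript counts once. The members had 300 sites, 1.82 per gene on average against 1.89 over all genes. Of these, 105 were found in A549/DDP alone (35.0%, 29.6 to 40.7), 46 in A549 alone (15.3%, 11.4 to 19.9) and 149 in both (49.7%), beside 30.4%, 18.6% and 50.9% of 15031 sites of all genes. Stop-codon sites were mostly shared: of 58 member sites that span coding sequence and 3′ UTR, 43 were in both lists (74.1%), beside 76.3% over all genes. Sites inside coding sequence were shared less often: of 93, 47 were in A549/DDP alone (50.5%, 40.0 to 61.1), 15 in A549 alone (16.1%) and 31 in both (33.3%), beside 40.4%, 20.9% and 38.7% over all genes. Of 99 sites inside the 3′ UTR, 25 were in A549/DDP alone and 24 in A549 alone (25.3% and 24.2%, beside 28.4% and 25.6% over all genes). Of 48 sites at the 5′ UTR, alone or with coding sequence, 22 were seen in the A549/DDP list alone, 3 in the A549 list alone and 23 in both (45.8%, 6.25% and 47.9%, beside 46.3%, 9.07% and 44.6%). Of the 48, the 8 inside the 5′ UTR alone had 2 in both lists (25%, beside 22.3% over all genes), and both member sites that touched both UTRs were in both lists, as were 91.3% of such sites over all genes.

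**Figure D5:**
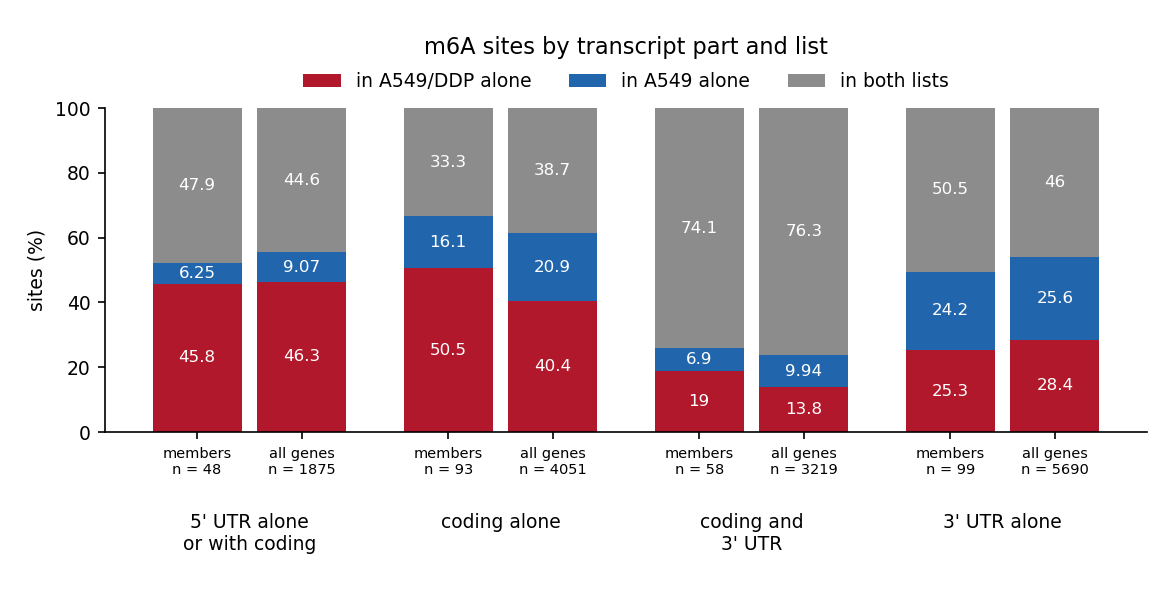
Percentage of m6A sites (vertical axis) found in A549/DDP alone (red), A549 alone (blue) and both lists (grey), by transcript part, for member sites and sites of all genes (n below each bar). Stop-codon sites are mostly in both lists (74.1% of member sites), and coding sites of members are in A549/DDP alone in 50.5%.

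Genes listed for both lines could still differ in their sites. Of the 111 members listed in both, 53 had every site in both lists (47.7%, against 53.4% of all such genes), 46 had at least one site in A549/DDP alone (41.4%, against 33.4%) and 22 had at least one in A549 alone (19.8%, against 24.0%). No site was common to both lists in 7 of them, FBXW8, RNF103, RNF111, RNF157, TRIM32, TRIM6 and TRIM7 (6.31%, against 4.47%). At the other end, 34 member peaks in 15 genes had exactly the same start, end and exon blocks in both lists, among them RNF26 at its start codon (chr11:119205626-119206076, folds of 2.08 and 2.81). Over all member peaks, 61.7% of those in A549/DDP (57.8 to 65.6) overlapped a peak of the A549 list and 80.1% of those in A549 (76.3 to 83.6) overlapped a peak of the A549/DDP list, beside 67.2% and 78.0% of all peaks. Of the 238 member peaks of A549/DDP that met none in A549, 24.4% touched the 5′ UTR (19.1 to 30.3), and of the 97 of A549 that met none in A549/DDP, 4.12% did (1.13 to 10.2). Over all such peaks the shares were 17.5% and 5.10%, so the higher share in A549/DDP was seen over all genes as well. The intervals over peaks given here are too narrow, because peaks of a gene can overlap. UBE2C and UBE2K, for example, each had 5 of the 238 peaks within 1 region.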

How the data were processed

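RNA of A549/DDP and A549 cells was immunoprecipitated with an antibody against m6A, and pull-down and input libraries were made with a stranded kit, per the labels' protocols. HISAT2 and hg19 are named in the submitters' processing notes; not given in the sources used here are the peak caller, its threshold, the scaling and the annotation release. For each line the authors deposited 1 peak list (A549/DDP 33465 rows, A549 28601 rows), assumed to come from that line's 2 libraries. Per the file headers, a row gives position, exon blocks, transcript, gene, transcript parts, a fold enrichment (a linear ratio) and a p-value; whether the p-value was adjusted is not stated.

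Rows with the same position and blocks were counted as 1 distinct peak (32069 and 27319), overlapping peaks of a gene were merged into regions within a list and into sites over both lists, and peaks were called shared with at least 1 common exonic base on the same strand. Listing for a line needed at least 1 peak with the gene's symbol. The value given for a gene is its highest fold at a strong peak, otherwise that of its smallest p, unless a region or a highest fold is named. Shares have exact Clopper-Pearson 95% intervals. Overlap and merging were tested on simulated data. Python 3.11.15, pandas 2.3.3 and scipy 1.17.1 were used.

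Members and gene lists were chosen with earlier results of these data known. Named were all UBE3 and OTUD members, the DNA damage list, and, per family, up to 3 genes of each line alone and of both lines by the highest fold at a strong peak (for both lines, by the lower of the gene's ranks), with up to 5 by number of regions, by unshared regions and by 5′ UTR peaks in one line. All other members and pathway genes named were chosen after their values were seen. Alternatives were folds of at least 5 or 2, p of at most 1e-05, equal numbers of peaks, assembled chromosomes, other overlap rules, merged regions, rows as listed and current symbols. The values of 1 UBE2 gene are not reported here, though it is part of the counts.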

Additional observations from a re-analysis of the deposited data

How the results depend on the processing

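Of 118 values recomputed under the alternatives, 86 stayed within their 95% interval or moved by at most 1.5 times, and 32 moved further. Members listed for A549/DDP alone numbered 26 to 40 and those for A549 alone 10 to 21 across all alternatives. Members listed in both numbered 59 with folds of at least 5, 58 with equal numbers (the 13659 peaks of smallest p per list) and 72 with p of at most 1e-05; a stricter threshold leaves fewer peaks by construction, and a gene of one line alone can then have a peak in the other list below the threshold. UBE2 genes of A549/DDP alone numbered 6 to 9, and those of A549 alone 2 with folds of at least 5 and 0 otherwise. The following alternatives for the 5′ UTR and DNA damage counts were chosen after seeing the data. The count of 11 members with 5′ UTR peaks only in A549/DDP became 3 with folds of at least 5, 3 with equal numbers and 4 with p of at most 1e-05, and the 1 in A549 alone became 0 under equal numbers and under the p threshold. Members of the DNA damage list numbered 13 for A549/DDP alone with p of at most 1e-05, and 1 for A549 alone with folds of at least 5 and with equal numbers.

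The overlapping share was 51.1% in A549/DDP and 62.6% in A549 with folds of at least 5, and 50.8% and 73.2% when at least 50% of a peak had to overlap. In A549 it was 83.6% with equal numbers and 84.3% with the p threshold. The 5′ UTR share was 22.2% in A549/DDP and 14.2% in A549 with folds of at least 5, 21.5% and 13.0% with equal numbers, and 13.1% in A549 over merged regions. The coding share in A549/DDP was 72.9% with folds of at least 5, 71.9% with equal numbers and 72.0% with the p threshold. The 3′ UTR share was 40.6% in A549/DDP with folds of at least 5, 55.1% in A549/DDP and 64.7% in A549 with equal numbers, 62.9% in A549 with the p threshold, and 51.4% and 60.2% over merged regions. Of the 62 named genes, 47 had a peak left with equal numbers and 36 of these had the same listing; it was 43 of 51 with folds of at least 5, 51 of 58 with p of at most 1e-05, 61 of 61 with folds of at least 2 and 62 of 62 on assembled chromosomes. No paired analysis was possible because each line had 1 pull-down and 1 input library and no replicate.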
